A study of Mus musculus with 4 samples.

Results

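The genes described here are 35 genes of the acinar cell, the exocrine cell of the pancreas: 31 encode digestive enzymes, colipase or other secreted proteins, and 4 encode transcription factors of the acinar programme. They were taken by gene symbol from a fixed list that was drawn up with earlier results of these data known. All 35 have a row in a table of 55487 genes. The RNA came from fresh islets, the endocrine part of the organ. The C57BL/6 mice were 30 weeks old, and there were 4 libraries, each a pool of the islets of 2 mice. Control islets came from Ggcx flox/flox mice without Cre (2 pools), and knockout islets from Ggcx flox/flox; Pdx1-Cre mice (2 pools), so both groups carry the floxed Ggcx alleles. Pdx1 is active in the progenitors of the whole pancreatic epithelium, acinar cells included, so this Cre is not specific to islet cells. No group carried Pdx1-Cre with an intact Ggcx gene, and the effects of the transgene and of the loss of Ggcx cannot be told apart.

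Acinar cells make and store the enzymes of pancreatic juice. Most of the proteases are made as inactive zymogens, packed into granules and released into the ducts. Trypsin, once cut from trypsinogen by enterokinase in the gut, activates the other zymogens. Transcription of these genes depends on PTF1, a complex that holds Ptf1a and Rbpjl, with Nr5a2 and Bhlha15 (Mist1) as further regulators of the mature acinar cell. Islets are endocrine, and enzyme transcripts in an islet preparation are commonly taken as a sign of exocrine cells or their RNA carried along in the isolation. In these bulk libraries, fewer acinar cells and less RNA per acinar cell cannot be told apart.

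The libraries held 47624630 to 51756221 reads assigned to genes. Ggcx, the targeted gene, stood at 3971 and 3981 normalized counts in the control libraries and at 234 and 643 in knockout replicates 1 and 2, and its log2 fold change was -3.35 ± 0.35 (SE; limma adjusted p = 0.0163). Knockout replicate 1 thus kept 5.89% of the control mean and knockout replicate 2 kept 16.2%. The endocrine label held: Ins1 and Ins2 together took 18.1% to 19.7% of the reads of each library. A normalized count here is a read count divided by the authors' size factor of the library, and the control libraries are named by their column numbers (2 and 3), since the labels number the controls differently.

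The trypsinogen genes show how alike some of these genes are, which bears on how their reads can be counted. All 7 lie on GRCm38 chromosome 6, between 41030268 and 41525079. The coding sequences of Prss1, Prss2, Prss3, Try4, Try5 and Try10 were 88.7% to 97.4% identical to each other, and that of 2210010C04Rik was 76.3% to 78.1% identical to theirs. The stretch of 63 coding bases around the site that enterokinase cuts is given below from GENCODE M21 transcripts, with the 4 aspartate codons and the lysine codon before the cut in capitals.
Prss2: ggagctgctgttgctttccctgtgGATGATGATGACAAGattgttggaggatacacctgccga
Try4: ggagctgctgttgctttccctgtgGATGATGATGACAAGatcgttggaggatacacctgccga
Try10: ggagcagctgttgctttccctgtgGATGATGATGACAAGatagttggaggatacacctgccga
Prss3: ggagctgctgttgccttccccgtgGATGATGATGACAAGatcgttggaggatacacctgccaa
2210010C04Rik: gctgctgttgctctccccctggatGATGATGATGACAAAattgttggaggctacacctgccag
Prss1 and Try5 have the same 63 bases as Try4. This stretch differs from that of Prss2 at 1 base in Try4, 2 in Try10 and 4 in Prss3. In 2210010C04Rik a further aspartate codon (gat) stands just before the capitals, so the bases before it are shifted by a codon. Its 17 differences from Prss2 were counted position by position without a gap, and include the effect of that shift. Shared sequence was counted in 1 transcript per gene, the one with the longest open reading frame, against all transcripts of other genes. Of all windows of 75 bases in the Try4 transcript, 43.9% also occurred in a transcript of another gene, most often Try5. The share was 37.8% for Try5, 53.9% for Prss3, 51.2% for the amylase gene Amy2a5, 0.945% for Prss2 and 0 for 2210010C04Rik. In the transcripts used, 23 of the 35 genes shared no such window with another gene. One of the 23, Ctrc, has a different transcript that shares windows with Cela2a, and the exons of these genes overlap. How reads that fit several genes were treated in the counting, and the read length, are not given in the sources used here.

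The promoters were searched for letters that PTF1, Nr5a2 and Bhlha15 are known to bind, as a description with no test. Of the 35 genes, 29 were matched by symbol to a RefSeq promoter (GRCm38.p6), and the 250 bases before the start were searched on both strands. The PTF1 E-box CACCTG was found in 17 of 29 (58.6%), against 17.1% of all 27025 promoters. The second part of the PTF1 site, TTTCCC, was found in 8 of 29 (27.6%) against 21.9%, and both within 3 to 7 or 13 to 17 bases of each other in 3 of 29 (10.3%; Cel, Cela1 and Prss1) against 0.340%. The Nr5a2 letters AAGGTCA were in 4 of 29 (13.8%) against 4.05%, and the Bhlha15 letters CATATG in 0 of 29 against 3.47%. The share with TTTCCC was thus close to that of all promoters, and some of these genes are near copies of each other. These are matches of letters, not measured binding, and matches of different motifs may overlap at their ends. The 120 bases before the start of 5 genes follow, with each match in capitals: Cela1 and Cel as examples with the spaced pair, Prss2 and Try4 as trypsinogens, and Ctrl as a gene with the E-box alone.
Cela1, chr15:100687921-100688040, minus strand: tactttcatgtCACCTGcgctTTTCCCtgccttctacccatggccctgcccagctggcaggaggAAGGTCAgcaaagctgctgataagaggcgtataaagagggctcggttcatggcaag
Cel, chr2:28563404-28563523, minus strand: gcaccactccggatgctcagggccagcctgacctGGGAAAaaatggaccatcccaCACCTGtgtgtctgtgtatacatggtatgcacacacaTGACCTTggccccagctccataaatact
Prss2, chr6:41521656-41521775, plus strand: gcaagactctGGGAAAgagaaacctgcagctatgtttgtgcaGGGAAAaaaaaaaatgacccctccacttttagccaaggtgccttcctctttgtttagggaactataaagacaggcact
Try4, chr6:41302152-41302271, plus strand: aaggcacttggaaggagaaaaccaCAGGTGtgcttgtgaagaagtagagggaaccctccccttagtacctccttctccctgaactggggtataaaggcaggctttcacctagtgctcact
Ctrl, chr8:105933863-105933982, minus strand: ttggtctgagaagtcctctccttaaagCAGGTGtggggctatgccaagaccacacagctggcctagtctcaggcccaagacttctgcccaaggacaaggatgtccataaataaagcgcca
In the Cela1 promoter the E-box starts 109 bases and the TTTCCC 99 bases before the start. The E-box of Try4 starts 96 bases before the start and is read on the opposite strand, as is that of Ctrl at 93 bases.

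**Figure D1:**
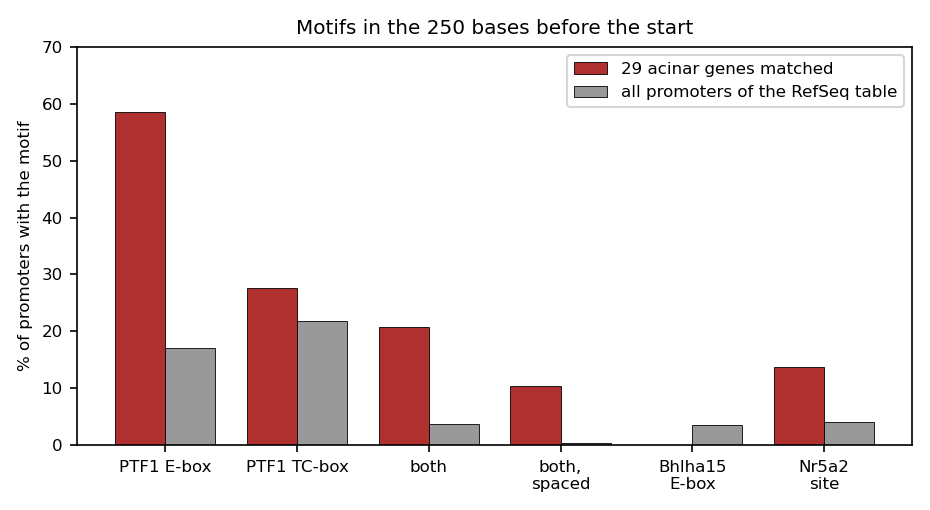
Percent of promoters (250 bases before the start, both strands) that hold each motif, for the 29 acinar genes with a promoter in the RefSeq table (red) and for all 27025 promoters (grey). The E-box of PTF1 is in 58.6% of the acinar promoters and 17.1% of all promoters, and the Bhlha15 E-box is in none of the acinar ones.

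Digestive gene transcripts were a small part of the islet RNA. The 31 enzyme and secreted protein genes together took 0.0407% and 0.0454% of the reads in the control libraries, 0.0199% in knockout replicate 1 and 0.0334% in knockout replicate 2. Both knockout libraries stood below both controls, and knockout replicate 1 stood apart from knockout replicate 2. The mean was 0.0430% ± 0.0033 in controls and 0.0266% ± 0.0096 in knockouts (SD, n = 2 pools each), a ratio of 0.619. An exact two-sided permutation test gave p = 0.333, the smallest that 2 against 2 libraries allow. Set against the insulin reads of the same library, the genes gave 21.3 and 25 reads per 10000 insulin reads in controls, and 10.4 and 17 in knockouts.

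Of the 35 genes, 27 had a normalized count of at least 10 in at least 2 libraries and were tested with 16589 genes in all. None of them passed through a single group, since the lowest value of any of the 27 in any library was 12.5 (Amy2b in knockout replicate 1). The next gene under the filter, Prss3, reached 16.7 in 1 library only. As reads per kilobase of exon scaled to library depth (RPKM), averaged over the 4 libraries, the chymotrypsinogen gene Ctrb1 was the most abundant at 44.5, followed by Prss2 at 28.2, Pnlip at 18.4, Cpa1 at 16.4 and Cela2a at 15.3. Within the summed normalized counts of the 31 genes, Ctrb1 (11.4%), Pnlip (11.3%), Cpa1 (8.31%), Cel (8.14%) and Cela2a (7.51%) had the largest average shares. Some of these shares moved little between libraries and others moved more. Cpa1 made up 7.84% and 8.18% of the sum in controls and 8.64% and 8.56% in knockouts. The share of Pnlip ran from 9.09% in knockout replicate 1 to 12.8% in control column 3. That of Ctrb1 ran from 10.1% in control column 2 to 12.9% in knockout replicate 1.

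**Figure D2:**
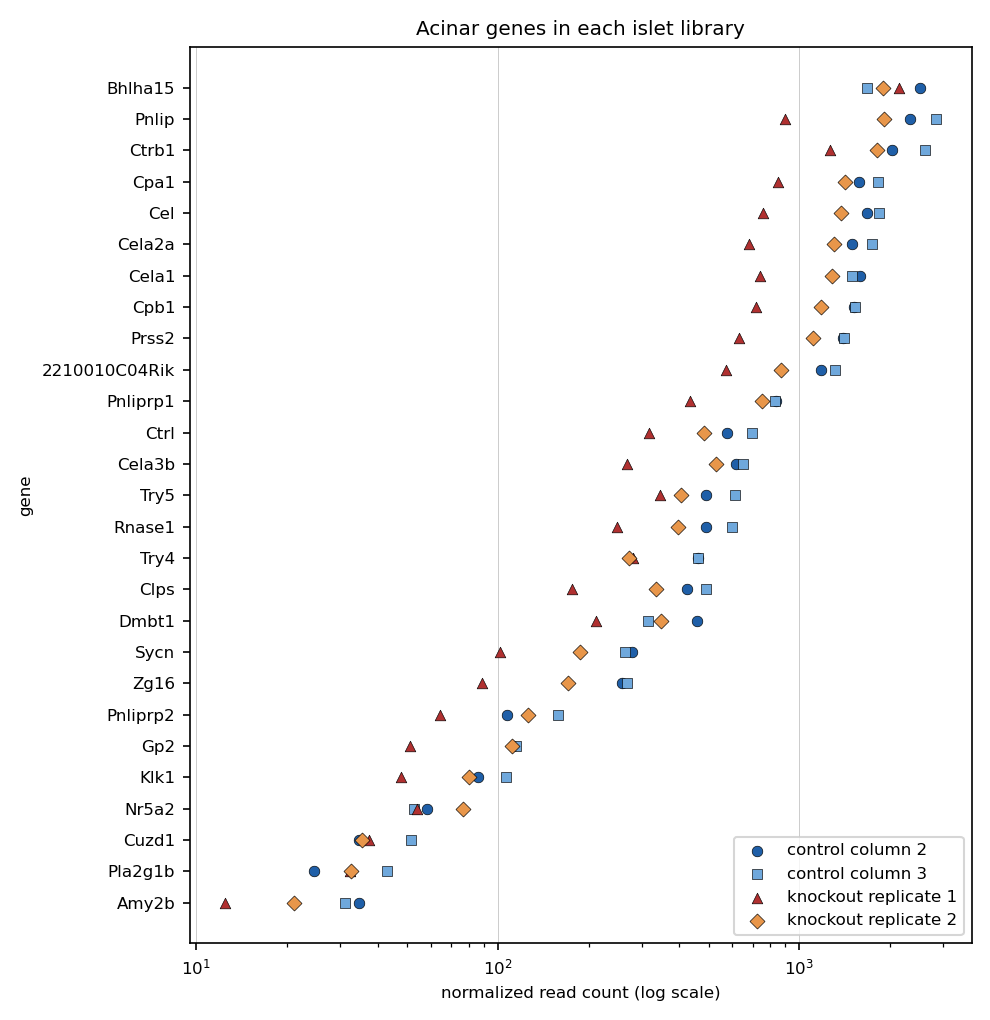
Normalized read counts (log scale) of the 27 tested acinar genes in each of the 4 libraries, ordered by mean. Knockout replicate 1 (red triangles) lies to the left for nearly all enzymes, with Pnlip at 895 against 2335 and 2850.5 in controls, while Try4, Bhlha15, Nr5a2, Cuzd1 and Pla2g1b do not follow that order.

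The comparison of genotypes asked whether acinar transcripts differed in islets after the loss of Ggcx. One of the 27 tested genes passed the test, the trypsinogen gene Try4, which was lower in knockout islets (limma adjusted p under 0.05, background 0.374% of all tested genes called lower). None was called higher (background 0.247%). In 21 of 27 genes both knockout libraries stood below both controls, against a background of 23.0%, and in none did both stand above (background 22.0%). In 20 of 27 genes both knockout libraries stood below both controls with knockout replicate 1 the lowest (background 11.4%). Over all tested genes, knockout replicate 1 was the lowest in 1899 of the 3812 genes with both knockout libraries below. The median log2 fold change of the 27 was -0.70, against 0.00 for all tested genes. It was below 0 in 26 of 27 (background 49.9%) and below -0.5 in 22 (background 2.2%). At an unadjusted limma p under 0.05, 20 were lower (background 7.34%) and 0 higher (background 6.74%). The direction of acinar genes in these libraries was already known from earlier work on them, so these counts are not independent support for it.

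**Figure D3:**
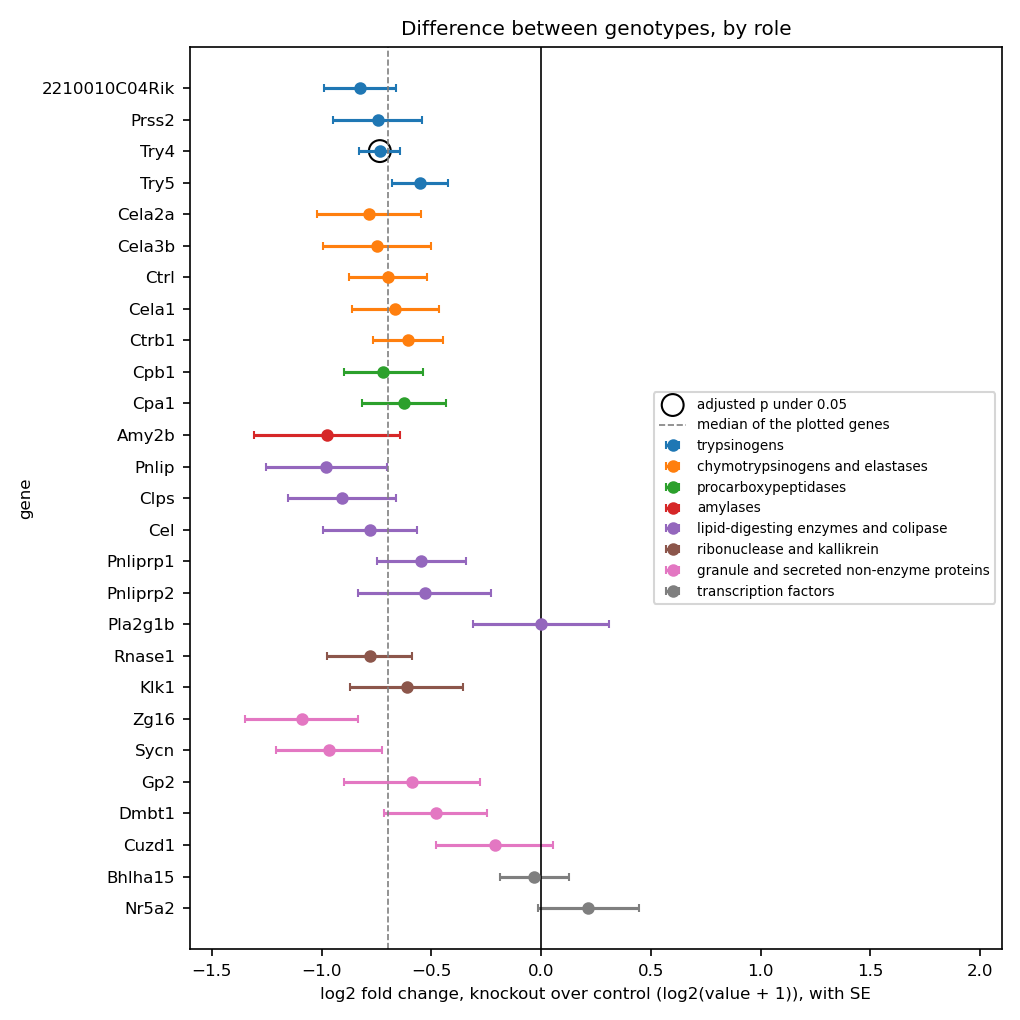
Difference of the mean log2(value + 1), knockout minus control, with its standard error from limma, for the 27 tested genes by role (colours). Only Try4 (circled) had an adjusted p under 0.05, 26 of the 27 points lie below 0, and the dashed line marks the median of -0.70.

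Among the trypsinogens, the zymogens of the protease that activates the rest, 4 of 7 were tested and 1 was called lower (background 0.374%). Try4 (ENSMUSG00000054106; GRCm38 chromosome 6, 41302269 to 41305532, plus strand) stood at 461 in both control libraries and at 280.0 and 273 in knockout replicates 1 and 2. The groups did not overlap and the libraries within each group lay close together. Its mean fell from 461 ± 0.0191 to 277 ± 4.73 (SD, n = 2 each), or 1.67-fold, a log2 fold change of -0.73 ± 0.09 (SE; limma adjusted p = 0.0251). It is a change near the median of the 27 genes, and what set Try4 apart was its small spread in these libraries. Its controls, with 451 and 473 reads, lay closer after scaling than counting error alone usually gives. Over all genes, replicate pairs differed beyond sampling noise. An SD this small from 2 pools may therefore be chance, and is not a measure of how the gene varies. Its reads can be shared with near copies, Try5 above all. Try5 stood at 491 and 611 in controls and 344 and 406 in knockouts, and its log2 fold change was -0.55 ± 0.13 (limma adjusted p = 0.0904).

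Prss2, the anionic trypsinogen gene, stood at 1397 and 1403 in controls, at 629.7 in knockout replicate 1 and at 1107 in knockout replicate 2. Controls agreed closely and the knockout libraries did not (log2 fold change -0.74 ± 0.20, limma adjusted p = 0.135). The trypsinogen gene 2210010C04Rik stood at 1177 and 1317 in controls and at 569 and 869 in knockouts (-0.82 ± 0.16, limma adjusted p = 0.0634). The other 3 trypsinogen genes were near the limit of detection and are described with the low genes.

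Of the chymotrypsinogen and elastase genes, 5 of 7 were tested and none passed the test (background 0.374% called lower). In all 5 both knockout libraries stood below both controls (background 23.0%). Ctrb1, which encodes chymotrypsinogen B, stood at 2036 and 2617 in controls, 1269 in knockout replicate 1 and 1811 in knockout replicate 2. Its log2 fold change was -0.61 ± 0.16 (limma adjusted p = 0.123). Cela1, an elastase gene, stood at 1589 and 1501 in controls and 740.0 and 1283 in knockouts (-0.66 ± 0.20). The related Cela2a stood at 1499 and 1748 in controls and 679 and 1304 in knockouts (-0.78 ± 0.24). In each of these genes knockout replicate 1 was the lowest library and knockout replicate 2 came next. Ctrl, a chymotrypsin-like gene, and Cela3b had log2 fold changes of -0.70 ± 0.18 and -0.75 ± 0.25.

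Both procarboxypeptidase genes, whose products trim single residues from the ends of peptides, showed the same order of libraries. Cpa1 stood at 1577 and 1827 in controls and 851 and 1419 in knockouts (log2 fold change -0.63 ± 0.19, limma adjusted p = 0.179). Cpb1 stood at 1516 and 1527 in controls and 721 and 1183 in knockouts (-0.72 ± 0.18, limma adjusted p = 0.112). The controls of Cpb1 differed by far less than its knockout libraries did.

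Among 6 genes for lipid digestion, 4 had both knockout libraries below both controls (background 23.0%) and none passed the test (background 0.374% called lower). Pnlip, the pancreatic lipase gene, stood at 2335 and 2850.5 in controls, 895 in knockout replicate 1 and 1915 in knockout replicate 2, with a log2 fold change of -0.98 ± 0.27 (limma adjusted p = 0.147). Knockout replicate 1 held 34.5% of the control mean of Pnlip and knockout replicate 2 held 73.9%. Cel, which encodes bile salt-dependent lipase, stood at 1679.8 and 1832 in controls and 759.8 and 1376 in knockouts (-0.78 ± 0.21). Clps, the gene of the lipase cofactor colipase, had -0.91 ± 0.25 and Pnliprp1, a lipase-related gene, -0.55 ± 0.20. Pnliprp2 had -0.53 ± 0.30 with overlapping groups. Pla2g1b, the pancreatic phospholipase A2 gene, departed from this order: it stood at 24.5 and 42.9 in controls and 32.3 and 32.6 in knockouts, at a low level where the controls differed more than the groups.

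Rnase1, the pancreatic ribonuclease gene, had a log2 fold change of -0.78 ± 0.19 (limma adjusted p = 0.110), and Klk1, a tissue kallikrein gene, -0.61 ± 0.26. Of 5 genes for granule and other secreted proteins, Zg16, a zymogen granule lectin gene, had the lowest log2 fold change of all 27 at -1.09 ± 0.26 (limma adjusted p = 0.0976). Zg16 stood at 259 and 269 in controls, 88.5 in knockout replicate 1 and 172 in knockout replicate 2. Sycn, the gene of the granule protein syncollin, stood at 279 and 264 in controls and 102 and 188 in knockouts (-0.97 ± 0.24). Gp2, the gene of the main granule membrane glycoprotein, stood at 112 and 115 in controls, 51.0 in knockout replicate 1 and 111 in knockout replicate 2, so that only 1 knockout library was far from the controls. Dmbt1 (-0.48 ± 0.23) and Cuzd1 (-0.21 ± 0.27) had overlapping groups.

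The transcription factor genes did not show the order of libraries seen in the enzymes. Ptf1a had 1 read in knockout replicate 1 and 0 in the other 3 libraries. Rbpjl had 1 and 2 reads in controls and 1 and 4 in knockouts. These defining acinar regulators were thus at or near 0 in all libraries, and Ctrb1 and Pnlip stood at 895 or more in every library. The 31 enzyme and secreted protein genes together took only 0.0199% to 0.0454% of the reads. Whether transcripts of acinar regulators could be detected at that level was not tested. By the one-sided 95% limit used here, a count of 0 allows up to 3 reads, or 2.88 to 3.12 normalized counts in a library. Bhlha15 was abundant, at 2518 and 1676 in controls and 2138 and 1894 in knockouts, with overlapping groups and a log2 fold change of -0.03 ± 0.16 (limma adjusted p = 0.964). Its RPKM was 11.9, close to that of Cela1 at 11.2, and bulk RNA does not separate its expression in islet cells from that in acinar cells. Nr5a2 stood at 58.2 and 52.6 in controls and 54.1 and 76.7 in knockouts (0.22 ± 0.23).

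The enzyme genes also differed between the 2 knockout pools, by about as much as between the genotypes. Over the 22 enzyme and secreted protein genes with a mean of at least 50, a set taken after the values were seen, the median ratio of knockout replicate 1 to knockout replicate 2 was 0.577, with quartiles of 0.522 and 0.623, while the median ratio of the knockout to the control mean was 0.626. The same ratio over 13396 genes of that abundance had a median of 0.999 and quartiles of 0.95 and 1.05. Between the control libraries, the median ratio of column 2 to column 3 was 0.905 over the 22 genes and 0.998 over all. Of all 27 tested genes, 20 stood in knockout replicate 1 at under 0.7 of knockout replicate 2 (background 3.69%), a limit set after the values were seen. Knockout replicate 1 was the lowest library in 21 of the 22 genes, and knockout replicate 2 the next in 19. Over all tested genes, 11.4% had knockout replicate 1 lowest and knockout replicate 2 next. Try4 alone was not lower in knockout replicate 1 (ratio 1.02), and Try5 came next at 0.849. Knockout replicate 1 was also the library with the lower remaining Ggcx. Whether these values are related was not tested.

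**Figure D4:**
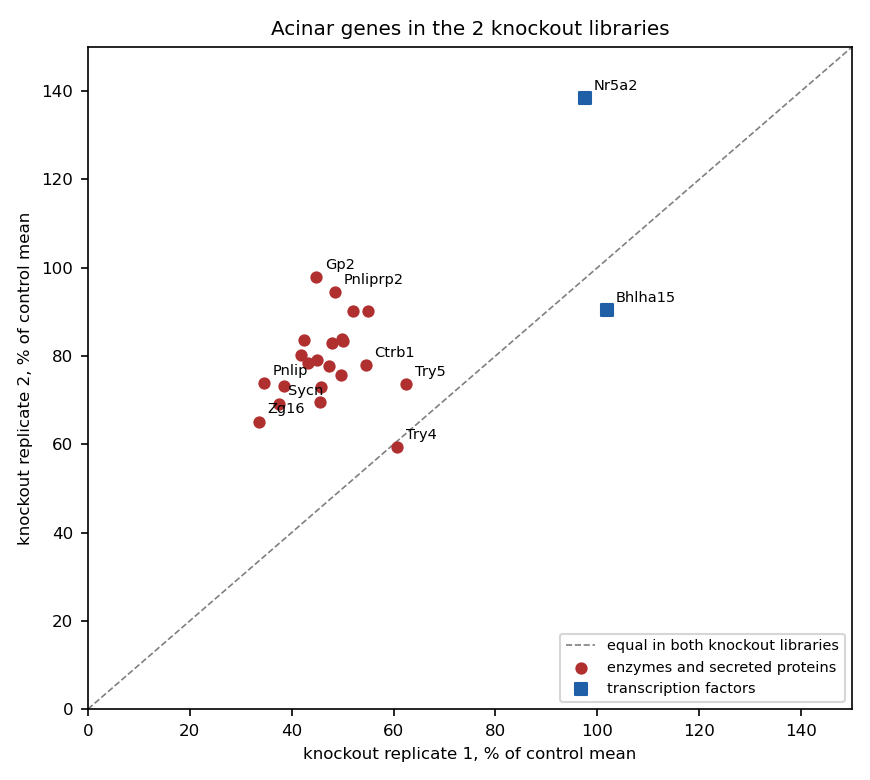
Level of each acinar gene with a mean of at least 50 in knockout replicate 1 (horizontal axis) and knockout replicate 2 (vertical axis), as percent of the control mean. The enzymes and secreted proteins run from 33.5% to 62.5% in knockout replicate 1 and from 59.3% to 97.8% in knockout replicate 2, and of them only Try4 reaches the dashed line of equal values.

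The number of genes that passed the test depended on which pools were included. Without knockout replicate 2, 19 of 27 acinar genes were called lower (background 0.735%) and the median log2 fold change was -1.06. Without knockout replicate 1, 2 of 27 were called, Try4 and 2210010C04Rik (background 0.466%), with a median of -0.34. Leaving out control column 2 gave 3 of 27, Ctrb1, Try4 and Try5 (background 1.34%), and leaving out control column 3 gave Try4 alone (background 0.286%). In each of these fits 1 group has a single library, which is assumed to vary like the pair in the other group. Try4 kept its call in all 4, with adjusted p between 0.0174 and 0.0420, and its log2 fold change was -0.75 without knockout replicate 1 and -0.72 without knockout replicate 2.

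The authors' deposited table gives an adjusted p for 24 of the 35 genes, and 6 of these 24 are under 0.05, all lower in knockout islets: Try4, Try5, Ctrl, Rnase1, Zg16 and Sycn (background 1.52% of the genes given an adjusted p). In the authors' deposited table the log2 value, control over knockout, is 0.74 for Try4 and 1.02 for Zg16. DESeq2 on the reads recovered from the same columns also called 6 of 23 (background 1.62%), the same 6 genes, and edgeR called Try4 alone (background 0.428%). Pnlip and Cel, more abundant than these 6 and with fold changes of like size, were not called by DESeq2 or in the authors' deposited table. With limma, Try4 lost its call and no member was called lower with no filter on low values (0 of 34, background 0.00363%) or without the mean-variance trend (0 of 27, background 0.0%).

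The 8 genes under the filter had between 0 and 16 reads in any library, and 5 of them share windows of 75 bases with another gene in the transcript used, besides Ctrc with its other transcript. Cela3a had 0 reads in all libraries, while its neighbour Cela3b, with 21% of windows shared, stood at 269 to 649.8. Amy2a5, a pancreatic amylase gene, had 2 and 1 reads in controls and 3 and 6 in knockouts, and 51.2% of its windows also occur in other amylase genes. The amylase row that passed the filter, Amy2b, is annotated as an unprocessed pseudogene, and stood at 34.7 and 31.2 in controls and 12.5 and 21.1 in knockouts (log2 fold change -0.97 ± 0.33, limma adjusted p = 0.230). The amylase rows are therefore uncertain as a measure of pancreatic amylase. Prss1 had 1 read in all 4 libraries together, Try10 had 4, 4, 0 and 3 and Ctrc 3, 4, 0 and 1, in the order control 2, control 3, knockout 1, knockout 2.

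Prss3 ran against the enzymes in knockout replicate 1 alone. It had 5 and 2 reads in controls, 16 in knockout replicate 1 (exact two-sided Poisson 95% interval 9.15 to 26) and 3 in knockout replicate 2 (0.619 to 8.77). The intervals cover counting error only. Prss3 shares windows with Gm5771, Gm10334 and Prss1. The trypsinogen-like genes Gm5771 and Gm10334 were also highest in knockout replicate 1, at 8 and 2 reads against at most 1 in any other library. Prss1 had its only read in knockout replicate 1. Gm5771 and Gm10334 were singled out after their values were seen, and no test was made. Knockout replicate 1 was the lowest library for the abundant trypsinogens Prss2, Try5 and 2210010C04Rik.

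Other genes known from acinar cells, taken from a list fixed by name, had a median near 0. Of 30 genes, 29 are in the table, 15 were tested and 0 were called, with a median log2 fold change of 0.04. In 5 of the 15 both knockout libraries stood below both controls (background 23.0%), and in 2 above (background 22.0%). The background for calls, here and in the lists that follow, is 0.374% lower and 0.247% higher. The most abundant were Rab3d, a GTPase of secretory granules, at 0.04 ± 0.07, and Chrm3, the muscarinic receptor gene that triggers enzyme release, at -0.16 ± 0.06. The lowest value of either was 3531, of Chrm3 in knockout replicate 1.

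Of the marker lists for other cell types, that of stellate cells and fibroblasts held the only called gene. In that list 1 of 11 tested genes was called higher (background 0.247%), Dcn, which stood at 175 and 114 in controls and 408 and 296 in knockouts (1.29 ± 0.21, limma adjusted p = 0.0449). Over the list the median was 0.54, and 7 of 11 genes stood above both controls in both knockout libraries (background 22.0%). The summed level of the list was 13389 and 11463 in controls and 14379 and 13774 in knockouts. Most of this sum came from 1 gene, Rgs5, singled out after its values were seen. Without Rgs5 the sum was 3313 and 2608 in controls and 4507 and 3657 in knockouts, and the part of these genes in the enzyme values was not tested. Of 12 duct genes 7 were tested and 0 called (median 0.16), with Tff1 at 0 in all libraries. In 3 of the 7 both knockout libraries stood above both controls (background 22.0%), and in 0 below (background 23.0%). The summed levels lay between 12722 and 13580, and most of this sum came from Krt7. Without Krt7 the sum was 3487 and 3045 in controls and 4148 and 3392 in knockouts. The most abundant duct genes were Krt7 at -0.05 ± 0.05 and Spp1 at 0.43 ± 0.19. The endothelial (8 tested, Plvap 0.11 ± 0.10, Flt1 0.03 ± 0.07), immune (6 tested, Lyz2 0.19 ± 0.10, Csf1r -0.19 ± 0.10) and islet hormone lists (5 tested, Ins1 0.12 ± 0.16, Ins2 0.04 ± 0.20, Gcg 0.26 ± 0.14) had 0 called genes each. Of the stress and acinar injury genes 4 were tested and 0 called, with Clu at -0.05 ± 0.09 and Nupr1 at -0.41 ± 0.22. The Reg genes of that list, given after their values were seen, did not share one order of libraries. Reg1 stood at 359.7 and 363 in controls, 176 in knockout replicate 1 and 301 in knockout replicate 2 (-0.65 ± 0.21, limma adjusted p = 0.204). Reg2 stood at 85.8 and 82.8 in controls, 63.5 in knockout replicate 1 and 151 in knockout replicate 2 (0.21 ± 0.34). Reg3a, Reg3b and Reg3g, under the filter, had 32, 168 and 43 reads in knockout replicate 2 and at most 7 in any other library.

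**Figure D5:**
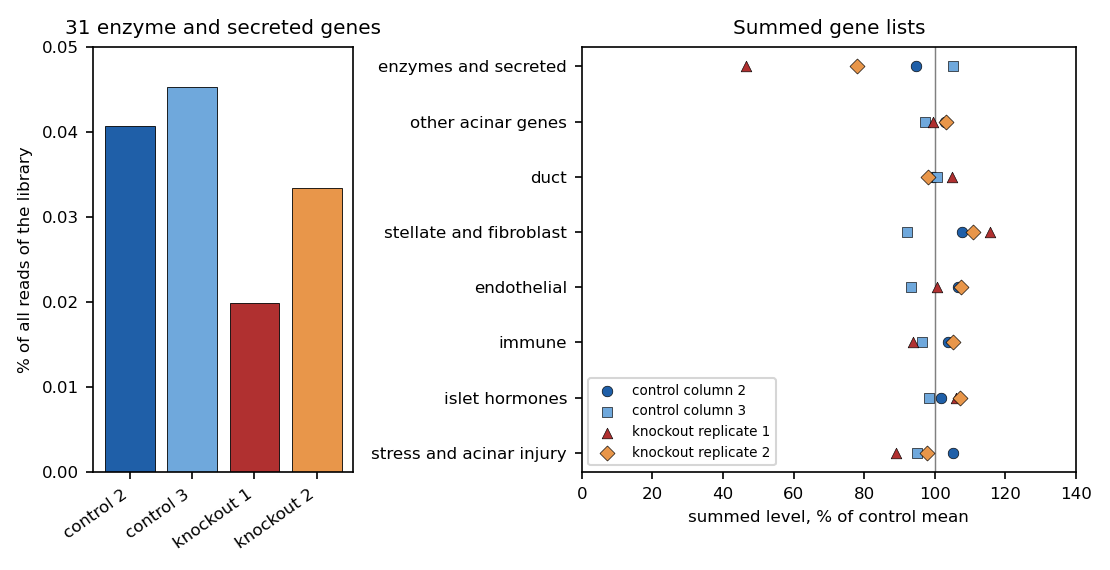
Left, percent of all reads taken by the 31 enzyme and secreted protein genes in each library. Right, the summed normalized count of those genes and of each other list, as percent of the control mean, where the enzymes of the knockout libraries lie furthest from 100% and the stellate list of knockout replicate 1 lies furthest above it.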

How the data were processed

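Poly(A)-enriched RNA of 4 islet pools was sequenced on Illumina machines, per the labels' protocols. The submitters' processing notes list, with no roles, GRCm38, featureCounts 1.6.0, STAR 2.5.1b, DESeq2 1.22.2 and CASAVA 1.4. For each gene the authors deposited 4 library values, which are read counts scaled to library size (a signal, per the file headers). Beside these the authors deposited a log2 fold change, whose sign is that of control over knockout, with a standard error and test statistic (scores) and p-values, used here only to list the authors' calls. All values (100%) came out whole, within 0.01 of a read, when divided by what 1 read was worth in that library. No column of another sample was found (0). Where nothing says that pools came from separate preparations, p-values measure only the spread between these libraries.

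The 16589 genes that reached 10 in 2 or more libraries were tested on log2(value + 1) by limma 3.58.1 (R 4.3.3; eBayes, mean-variance trend), two-sided, Benjamini-Hochberg over all genes at 0.05. The pseudocount understates changes of low genes. The steps were tested on simulated data. edgeR 4.0.16 (TMM) and DESeq2 1.42.0 on the recovered reads were alternatives, beside other pseudocounts, filters, scalings, limma settings and each library left out. Replicate pairs differed beyond sampling noise (chi-square over degrees of freedom 10.1 in controls and 9.85 in knockouts).

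The members and lists were chosen with earlier results of these data known. Every member is named; those called, the 10 with the highest mean and the 4 transcription factors are given in every library, and other lists by up to 4 called or their 2 most abundant genes, beside Ggcx, Ins1, Ins2 and Gcg. Genes outside this rule were named after their values were seen. Coordinates, exon lengths and shared windows are from GENCODE M21 (99.5% of identifiers matched). Promoters are from RefSeq. A planned comparison of trypsinogen proteins was replaced by one of coding sequences, taken as the longest open reading frame of a transcript. One result is not reported here.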

Additional observations from a re-analysis of the deposited data

How the results depend on the processing

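The count of acinar genes called lower, 1 in the reported fit, was 0 with no filter on low values (34 genes fitted) and 0 with limma without the trend, in which no gene of the table passed, and 6 with DESeq2. Over the fits that leave out 1 library it ran from 1 to 19, the highest without knockout replicate 2. The median log2 fold change, -0.70, ran from -1.06 to -0.34 over the same fits and from -0.71 to -0.60 over the others (with DESeq2 over 34 genes). Try4 lost its call with no filter (limma adjusted p = 0.213) and without the trend (0.322). The log2 fold change of Ggcx, -3.35, was also -3.35 with no filter, without the trend and with robust empirical Bayes, where it was no longer called (limma adjusted p = 0.217, 0.329 and 0.294). Signs turned in 7 of 371 refits of single genes, none of them called. Pla2g1b stood at 0.019 with a common upper quartile, and over the fits without 1 library at -0.39, 0.39, 0.0061 and -0.0084 (without control column 2, control column 3, knockout replicate 1 and knockout replicate 2). In the same order Bhlha15 stood at 0.26, -0.32, -0.12 and 0.058, Nr5a2 at 0.29, 0.14, 0.46 and -0.032, and Cuzd1 at -0.49, 0.068, -0.25 and -0.17. No paired analysis was possible because the labels number the control samples 1 and 2 but their columns are numbered 2 and 3, so neither column could be tied to a sample, and the block was not run. With 2 pools per genotype the spread between pools, not depth, limits the precision, and under 20 reads counting error limits the low genes.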
